A study of Mus musculus with 12 samples.

Results

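The apoptosome and executioner caspase genes examined here act after the pores of BAX and BAK1 have opened the outer mitochondrial membrane. They are Apaf1, Casp9, Casp6, Cycs, Diablo and Xiap, chosen by function, and were found by Entrez gene identifier as 6 of the 27179 genes in the count table. All 6 passed the filter on low counts and were among the 13592 genes tested.

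The RNA came from B220high IgM+ CD93- cells, the mature B cells that live in bone marrow, sorted from C57BL/6 mice. There were 4 groups of 3 libraries, which the series design calls biological replicates. The apoptosis-resistant group was Bak-/- BaxΔ/Δ and the apoptosis-sensitive group Bak-/- Baxfl/fl, both 10 weeks old, so both lacked Bak and only the resistant cells had also lost Bax. The wild-type groups were old (98, 99 and 100 weeks) and young (9, 10 and 11 weeks). The sources used here do not give the Cre driver that deleted Bax. Within each of these pairs of groups, libraries with the same replicate number were collected on the same date, which gave 6 dates. The Bak-deficient and wild-type groups shared no date.

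When BAX or BAK1 forms pores, cytochrome c, encoded by Cycs, leaves the space between the mitochondrial membranes and binds APAF1, which assembles into the wheel-shaped apoptosome and activates the initiator caspase-9. Caspase-9 cleaves executioner caspases, and caspase-6 is usually activated late among these. XIAP blocks several of these caspases directly, and DIABLO (also called SMAC), released through the same pores, binds XIAP and lifts the block. In lymphocytes this route removes cells that lose survival signals.

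Total counts per library lay between 13474162 and 23539764, and replicates of a group had correlations of log2 CPM (counts scaled to the size of the library) between 0.929 and 0.991. All 8 mature B cell markers were detected, among them Cd79a at 809.8 to 2031 CPM, while Cd93, the gene of the surface protein sorted against, had 9.52 to 36.1 CPM. Bax, the deleted gene, had 4.97, 6.42 and 8.36 CPM in resistant and 55.7, 56.3 and 100.1 CPM in sensitive cells, which did not overlap (log2 fold change -3.42 ± 0.40 SE, edgeR adjusted p = 0.0135). Bak1 had 6.17 to 14.4 CPM over the 6 Bak-deficient libraries, against 24.7 to 47.9 CPM over the 6 wild-type ones. Its log2 fold change in sensitive against young wild-type cells was -2.09 ± 0.34 SE, which did not pass (edgeR adjusted p = 0.135). The counts of both take in parts of each gene that may not have been deleted. The pair of libraries collected on 24 March, old and young replicate 1, stood apart for some members, as given below, and their labels name 2006 as the year where all others name 2016.

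The members spanned more than 10-fold in level per length of exon. Xiap, the caspase inhibitor, was the most abundant, with 18.2 ± 3.88 RPKM (CPM per kilobase of exon, SD over 12 libraries). Casp9 had 14.1 ± 1.40 RPKM, Apaf1 7.40 ± 1.02 RPKM and Diablo 6.47 ± 0.77 RPKM. Below these came Casp6 at 3.17 ± 0.68 RPKM and Cycs at 1.52 ± 0.57 RPKM. The 10-fold span is reached only with Cycs, for which the treatment of reads matching several copies is not stated. The ranges of Xiap and Casp9 overlapped, with the lowest Xiap library at 12.6 RPKM and the highest Casp9 library at 16.02 RPKM. Those of Apaf1 and Diablo overlapped too, as did those of Casp6 and Cycs. Every Casp9 library (10.6 RPKM and above) lay above every Apaf1 library (up to 9.40 RPKM), and every Diablo library (5.37 RPKM and above) above every Casp6 library (up to 3.93 RPKM).

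Over the 12 libraries 5 of the 6 members varied less than the median gene. The SD of log2 CPM was 0.15 for Casp9, 0.16 for Diablo and 0.20 for Apaf1, against a median of 0.41 over all genes tested. That median was not matched to the members by read count. Xiap (0.31) and Casp6 (0.37) also lay below that median, and Cycs (0.56) lay above it. Cycs was the member with the fewest reads, 34 to 205 per library, and its highest library was 4.66 times its lowest. By symbol, RefSeq names 3 Cycs pseudogenes, 0 of which are in the table, and copies under other names were not searched for. How reads that match several copies were treated is not stated in the labels. The other members had 144 to 4364 reads per library.

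**Figure D1:**
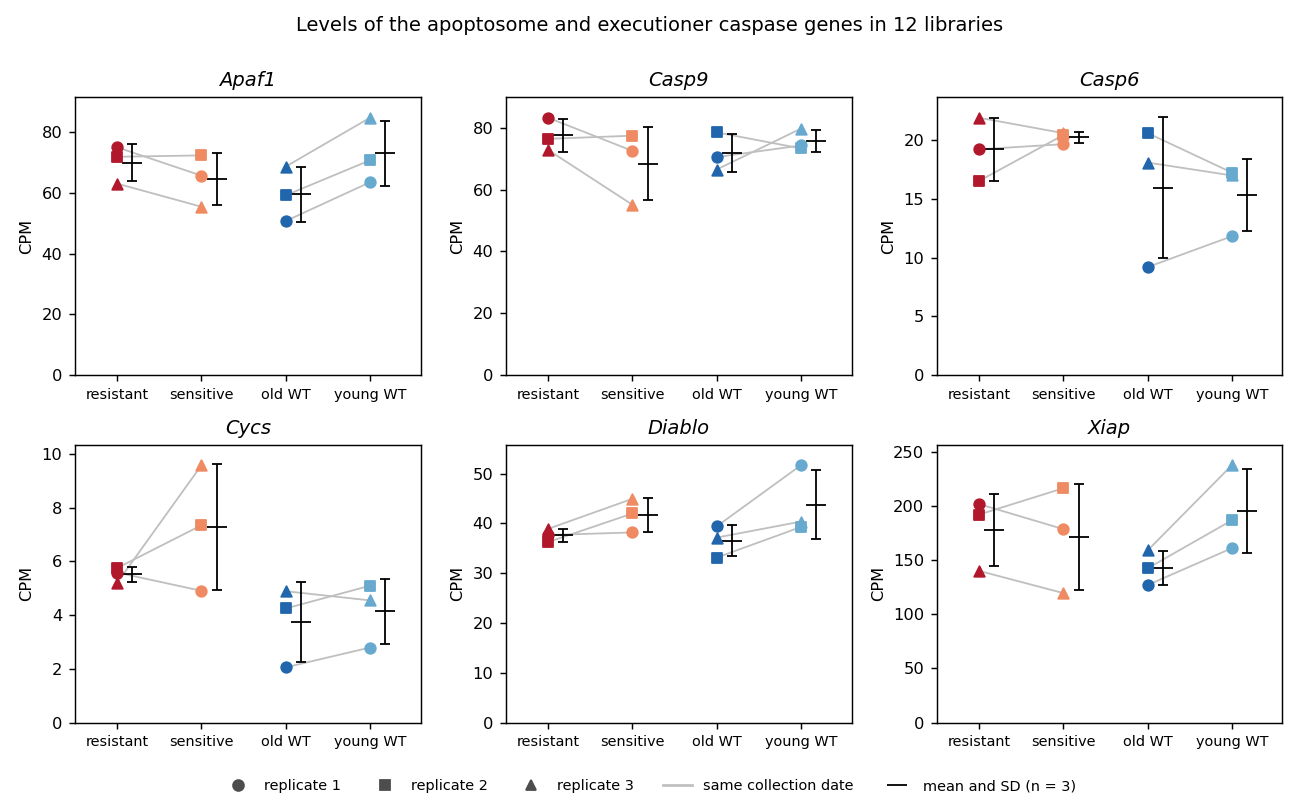
CPM of each member in the 12 libraries, by group, with the group mean and SD (n = 3) beside the points and grey lines joining libraries of the same collection date. Xiap lies lower in all 3 old than in all 3 young wild-type libraries, the Apaf1 lines fall the same way on all 3 dates, and for Cycs and Casp6 the lowest points are the libraries of 24 March.

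The highest Pearson correlations of log2 CPM between members over the 12 libraries were those of Apaf1 with Xiap (0.94) and Casp6 with Cycs (0.84). Casp9 followed Xiap (0.69) and Apaf1 (0.57) more loosely, and Diablo had no positive correlation with any other member (-0.35 to -0.07). These values describe 12 points that share groups, dates and library scaling. The value for Casp6 and Cycs includes the libraries of 24 March, where both genes were lowest, and was not computed without them. Low values fell together on single dates. Casp6 and Cycs were lowest of all in the 24 March libraries, with 9.20 and 2.06 CPM in old and 11.8 and 2.79 CPM in young cells. Xiap and Apaf1 were also lowest within their group in the 24 March libraries, with 127 and 50.8 CPM in old and 161 and 63.6 CPM in young cells. In the Bak-deficient groups they were lowest in the libraries of 7 May, with 140.1 and 63.1 CPM in resistant and 119.6 and 55.5 CPM in sensitive cells.

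**Figure D2:**
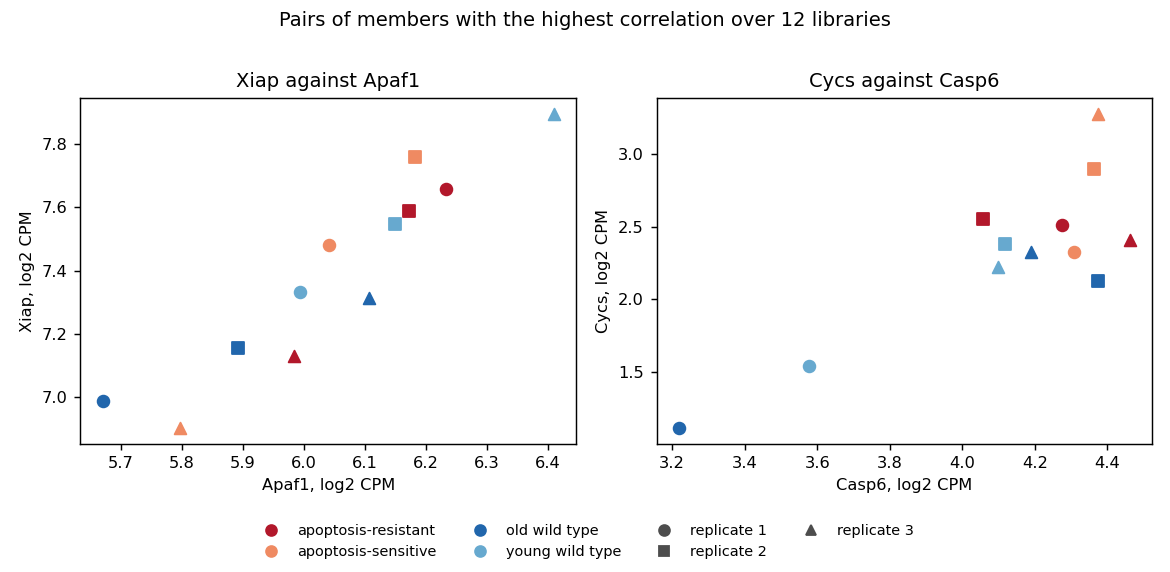
Log2 CPM of Xiap against Apaf1 (left) and of Cycs against Casp6 (right), 1 point per library, with colour for the group and shape for the replicate number. The points follow a line for Xiap and Apaf1 (r = 0.94), while for Cycs and Casp6 (r = 0.84) the 2 libraries of 24 March lie far below the other 10.

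The 250 bases before the transcript start are shown for Apaf1 with Xiap and Casp6 with Cycs, the pairs of members with the highest correlations. They are RefSeq sequences of GRCm38.p6, the assembly also called mm10, and all 6 members had an entry. Capitals mark the cAMP response element TGACGTCA and the core NRF-1 motif GCATGCGC (GCGCATGC on the other strand). The SP1 motif GGGCGG and the NF-Y motif CCAAT, left in lower case, were searched as well. All 4 were searched on both strands, and no matches of different motifs overlapped in these windows. NRF-1 is a transcription factor known for genes of mitochondrial respiration. Xiap has 3 start windows in RefSeq, of which the first is printed. All of them lie inside the span of the Xiap gene, while the windows printed for the other genes lie directly before theirs.
Apaf1, chr10:91082744-91082993, minus strand: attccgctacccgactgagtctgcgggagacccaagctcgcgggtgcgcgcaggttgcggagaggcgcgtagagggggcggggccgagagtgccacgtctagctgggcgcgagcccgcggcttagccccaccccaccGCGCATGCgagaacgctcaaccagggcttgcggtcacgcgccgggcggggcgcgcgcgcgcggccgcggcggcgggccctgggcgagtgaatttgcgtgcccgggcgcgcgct
Xiap, chrX:42068148-42068397, plus strand: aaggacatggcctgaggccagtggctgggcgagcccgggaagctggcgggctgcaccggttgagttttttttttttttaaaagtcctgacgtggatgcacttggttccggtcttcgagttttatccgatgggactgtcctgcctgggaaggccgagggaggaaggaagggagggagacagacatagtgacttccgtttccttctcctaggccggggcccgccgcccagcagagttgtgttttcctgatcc
Casp6, chr3:129901165-129901414, plus strand: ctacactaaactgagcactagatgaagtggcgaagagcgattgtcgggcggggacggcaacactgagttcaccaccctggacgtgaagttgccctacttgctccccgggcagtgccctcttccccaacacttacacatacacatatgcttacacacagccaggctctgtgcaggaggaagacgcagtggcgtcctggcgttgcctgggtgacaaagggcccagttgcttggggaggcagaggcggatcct
Cycs, chr6:50566570-50566819, minus strand: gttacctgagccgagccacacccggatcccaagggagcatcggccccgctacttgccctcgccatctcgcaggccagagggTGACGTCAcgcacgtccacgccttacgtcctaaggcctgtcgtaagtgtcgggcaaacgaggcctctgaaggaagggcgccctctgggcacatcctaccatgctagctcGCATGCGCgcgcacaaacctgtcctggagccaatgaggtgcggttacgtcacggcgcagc

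The Cycs window held the cAMP response element 169 bases before the start and the NRF-1 core 60 bases before it. The Apaf1 window held the NRF-1 core on the other strand, near its middle. Neither sequence was present in the Xiap and Casp6 windows. Over 32851 RefSeq windows of the same length 1.55% held TGACGTCA and 2.26% held the NRF-1 core. The SP1 motif was in both windows of the first pair, 175 and 71 bases before the start in Apaf1 and, on the other strand, 30 bases before it in Xiap. It was also in the Casp6 window, 205 bases before the start, but not in that of Cycs, and 32.7% of all windows held it. Of the Xiap windows not printed, the second held the SP1 motif, 60 bases before its start, and the third did not. Of the 4 printed windows that of Cycs held the NF-Y motif, 31 bases before the start, as did 33.8% of all windows. A match is a description of the sequence only.

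The comparison of resistant with sensitive cells asks whether the machinery downstream of the pores changes when Bax is lost from cells that already lack Bak. None of the 6 members passed the test. Casp9, the initiator caspase, had the largest positive log2 fold change (0.18) and Cycs the largest negative one (-0.40). For all 6 the libraries of the groups overlapped, against 14.6% of all genes whose groups did not. In all, 0.0441% of the 13592 genes passed at an adjusted p under 0.05, and 4.90% had an unadjusted p under 0.05, as did 0 of the members (edgeR). In DESeq2 0 members passed.

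Apaf1, the scaffold of the apoptosome, had 75.1, 72.0 and 63.1 CPM in resistant and 65.8, 72.4 and 55.5 CPM in sensitive cells. The ranges overlapped, and resistant cells were the higher on 2 of 3 dates. The log2 fold change was 0.12 (95% confidence interval -0.26 to 0.50, adjusted p = 1.0). Casp9 had 83.2, 76.4 and 72.8 CPM in resistant and 72.5, 77.4 and 55.1 CPM in sensitive cells. Its lowest library was sensitive replicate 3, and the other 5 lay close together. The interval of its fold was 0.893 to 1.44.

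Casp6, an executioner that cleaves nuclear lamins, had 19.2, 16.5 and 21.9 CPM in resistant and 19.7, 20.5 and 20.6 CPM in sensitive cells. The sensitive libraries lay within the range of the resistant ones, with a log2 fold change of -0.07 (-0.68 to 0.53). Cycs had 5.59, 5.76 and 5.21 CPM in resistant and 4.91, 7.35 and 9.59 CPM in sensitive cells. The resistant libraries were nearly level while the sensitive ones spread, and the log2 difference on the date of replicate 3 was -0.87. The interval of the Cycs fold, 0.434 to 1.32, was the widest of the 6.

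Diablo had 37.7, 36.2 and 38.9 CPM in resistant and 38.2, 41.98 and 44.9 CPM in sensitive cells. It was lower in resistant cells on all 3 dates, as were 23.2% of all genes tested, and its log2 fold change was -0.15 (-0.49 to 0.20). Xiap had 202, 192 and 140.1 CPM in resistant and 179, 217 and 119.6 CPM in sensitive cells. Its libraries varied more by date than by group, with the lowest of each group collected on 7 May (log2 fold change 0.05, -0.47 to 0.58). With the collection date as a block, the adjusted p values of the 6 members lay between 0.372 for Casp9 and 0.827 for Casp6, where 3.41% of all genes passed. The median log2 fold change of the 6 was -0.01, against -0.02 over all genes tested.

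Old were set against young wild-type cells to ask what differs with age. Xiap, the inhibitor, and Apaf1, the scaffold, had lower levels in old cells on each of the 3 dates. The same was so for Diablo and for 25.2% of all genes tested. Neither Xiap nor Apaf1 passed the test without a date term. Both passed with the collection date as a block, where Xiap fell by 0.44 and Apaf1 by 0.29 on the log2 scale. Without the block 2.01% of all genes passed and 11.6% had an unadjusted p under 0.05, as did 0 of the 6 members (edgeR), and 0 members passed in DESeq2. With it, 14.9% of all genes passed, 7.03% as lower, and 2 of the 6 members did, both as lower.

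Xiap had 127, 142.5 and 159 CPM in old and 161, 187 and 238 CPM in young cells. All 3 old libraries lay below all 3 young ones, which was so for 1 of the 6 members and for 6.96% of all genes. The highest old and lowest young library were close, at 159.1 and 161.1 CPM, and came from different dates. The log2 fold change was -0.45 ± 0.24 (SE, 95% interval -0.98 to 0.08, adjusted p = 0.56). With the date block it was -0.44 ± 0.10 (-0.65 to -0.22, adjusted p = 0.0132), and the log2 differences within dates were -0.34, -0.39 and -0.58. The blocked call was lost without the date of replicate 3, where the adjusted p was 0.0586 at a log2 fold change of -0.37.

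Apaf1 had 50.8, 59.3 and 68.8 CPM in old and 63.6, 70.8 and 84.9 CPM in young cells. The groups overlapped, and the 3 dates spread more within each group than the group means differed. Within dates the old library was lower each time, by log2 differences of -0.32, -0.26 and -0.30. The log2 fold change was -0.29 ± 0.18 (adjusted p = 0.634) without the block and -0.29 ± 0.09 (-0.48 to -0.10, adjusted p = 0.0422) with it. The Apaf1 call was lost without any of the dates, at adjusted p values of 0.122, 0.106 and 0.11 without those of replicates 1, 2 and 3, and with DESeq2 under the same block (0.0685).

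The other 4 members did not pass in either fit. Casp9 had 70.5, 78.5 and 66.5 CPM in old and 74.3, 73.3 and 79.7 CPM in young cells, which overlapped (log2 fold change -0.08, -0.42 to 0.27). Diablo had 39.4, 33.1 and 37.1 CPM in old and 51.7, 39.3 and 40.4 CPM in young cells. It was lower in old cells on all 3 dates, as were 25.2% of all genes tested, and its ranges met only at old replicate 1 and young replicate 2. Its log2 fold change was -0.26 (-0.60 to 0.09, adjusted p = 0.648), and its adjusted p with the block was 0.111.

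Casp6 had 9.20, 20.6 and 18.1 CPM in old and 11.8, 17.3 and 17.0 CPM in young cells. On 24 March the old library was the lower, and on the other dates it was the higher, so that the log2 fold change of 0.05 (-0.55 to 0.66) had no settled direction. Cycs had 2.06, 4.25 and 4.89 CPM in old and 2.79, 5.10 and 4.55 CPM in young cells. These overlapped, with a log2 fold change of -0.16 (-0.98 to 0.65). Of the 6 members 5 had negative log2 fold changes, with a median of -0.21 against -0.04 over all genes tested.

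Markers of other cells moved with age in the same libraries, more of them with the date block, the fit in which Xiap and Apaf1 passed. Summed CPM of the 7 stromal markers was 18.8 to 140.1 in old and 3.29 to 13.5 in young cells, and 1 of 5 tested passed as higher without the block and 4 with it. The 8 monocyte and macrophage markers summed to 50.4 to 228 CPM in old and 22.5 to 142 CPM in young cells, with 1 of 8 higher without the block and 6 with it. The 8 T cell markers summed to 46.0 to 83.8 CPM in old and 38.3 to 77.2 CPM in young cells, with 2 of 8 higher, and 5 with the block. Lck was the largest part of that sum, with 26.3 to 70.6 CPM over the 12 libraries. No other T cell marker was above 9.54 CPM, and Cd3e reached 1.94 CPM at most. The 4 NK cell markers summed to 3.94 to 6.13 CPM in old and 0.385 to 2.24 CPM in young cells, with 1 of 3 tested higher, and all 3 with the block. The 5 plasmacytoid dendritic cell markers summed to 278 to 363 CPM in old and 215 to 257 CPM in young cells, with 1 of 4 tested higher, and 2 with the block. The 8 immature B cell markers summed to 33.2 to 66.5 CPM in old and 78.3 to 154 CPM in young cells, with 3 of 8 lower, and 7 with the block. The 8 mature B cell markers summed to 12802 to 17951 CPM in old and 19504 to 20474 CPM in young cells, with 0 of 8 passing, and 2 lower with the block. Of the granulocyte, erythroid and plasma cell markers 0 passed in either fit. No list held a marker at 0 in all 12 libraries. Their part in the Xiap and Apaf1 values was not tested. In bulk libraries, fewer cells of a type and less RNA per cell cannot be told apart.

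**Figure D3:**
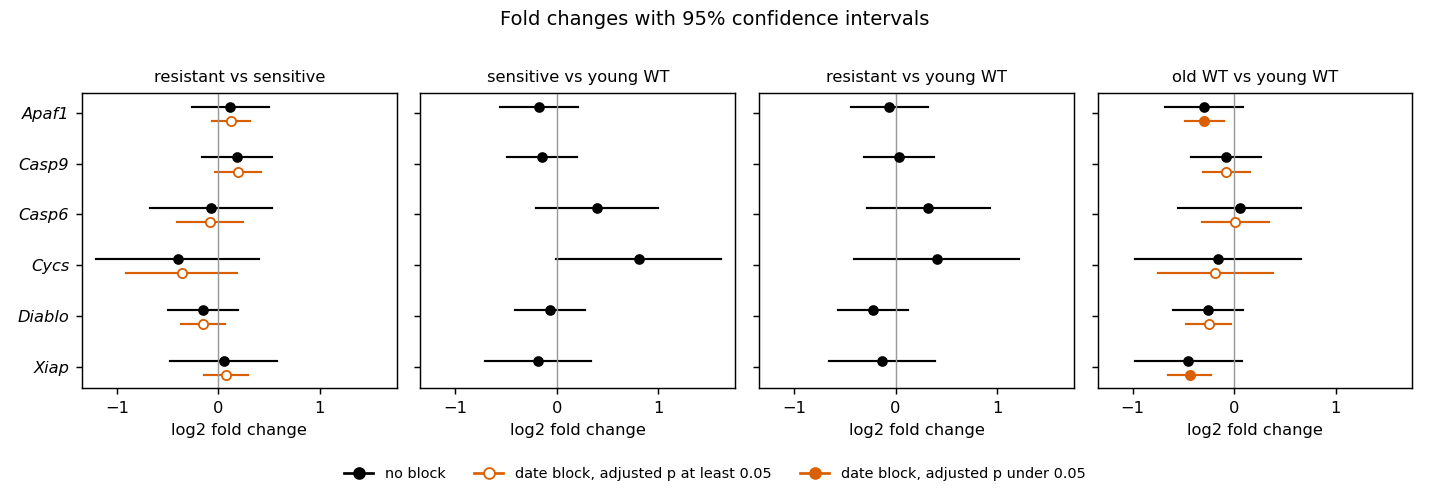
Log2 fold changes of the 6 members with 95% confidence intervals in 4 comparisons, without a block (black) and, where the groups shared dates, with the date block (orange, filled where the adjusted p was under 0.05). Every black interval reaches 0, and the filled points are Apaf1 and Xiap in old against young wild-type cells.

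Sensitive and resistant cells were each set against young wild-type cells, which asks what the loss of Bak alone, or of Bak and Bax, goes with. These comparisons share the 3 young libraries, and date and genotype cannot be told apart, since no date was shared. No member passed in either. Between sensitive and young cells 0% of genes passed and 2.73% had an unadjusted p under 0.05 (15 genes passed in DESeq2). Bak1 itself did not pass there in edgeR (log2 fold change -2.09, adjusted p = 0.135), so a gene that did not pass cannot be taken as unchanged. Between resistant and young cells 0.162% passed and 6.13% had an unadjusted p under 0.05. Among the members 0 were under 0.05 unadjusted in either comparison with edgeR, and 0 passed in DESeq2.

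Cycs differed most. Sensitive cells averaged 7.28 ± 2.34 CPM and young wild-type cells 4.15 ± 1.203 CPM (SD, n = 3 each), with overlap through sensitive replicate 1, at 4.91 CPM. The log2 fold change was 0.81 (-0.01 to 1.62, edgeR unadjusted p = 0.0513, adjusted p = 0.824). DESeq2 gave an unadjusted p of 0.0344 and an adjusted p of 0.836. Without the libraries of 24 March, the lowest for Cycs, it was 0.62 (adjusted p = 0.932). Resistant cells averaged 5.52 ± 0.28 CPM, with all 3 libraries above the 3 young ones, and a log2 fold change of 0.40 (-0.41 to 1.22, adjusted p = 0.813).

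Casp6 averaged 20.3 ± 0.50 CPM in sensitive cells, all 3 above the young libraries at 15.4 ± 3.07 CPM. It was the 1 member without overlap there, where 8.81% of all genes did not overlap, and its log2 fold change was 0.40 (-0.21 to 1.0). Resistant cells, at 19.2 ± 2.69 CPM, overlapped the young ones for Casp6. Diablo averaged 37.6 ± 1.33 CPM in resistant and 43.8 ± 6.87 CPM in young cells. Together with Cycs it was 1 of 2 members whose resistant and young libraries did not overlap, where 12.9% of all genes did not. The log2 fold change of Diablo was -0.22 (-0.56 to 0.13) in resistant and -0.07 (-0.41 to 0.27) in sensitive cells against young ones.

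Apaf1, Casp9 and Xiap overlapped in both comparisons. Apaf1 averaged 70.1 ± 6.22 CPM in resistant, 64.6 ± 8.53 CPM in sensitive and 73.1 ± 10.8 CPM in young cells. Casp9 averaged 77.5 ± 5.29 CPM in resistant, 68.3 ± 11.7 CPM in sensitive and 75.8 ± 3.46 CPM in young cells. Xiap averaged 178.1 ± 33.2 CPM in resistant, 172 ± 48.9 CPM in sensitive and 195 ± 39.0 CPM in young cells. For these 3 genes the differences were smaller than the larger SD of the groups, and log2 fold changes lay between -0.19 and 0.03. The medians over the 6 members were -0.01 for resistant and -0.11 for sensitive against young cells, where all genes tested had medians of -0.02 and -0.01.

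Around the members, 44 genes on 6 lists were followed, of which 43 were tested. The exception was the complex III subunit gene Uqcr11, with 0 to 2 reads per library. Without a date block 0 of the 43 passed in any of the 4 comparisons, in edgeR or in DESeq2. An unadjusted edgeR p under 0.05 was reached by 1 gene each in old against young, resistant against sensitive and resistant against young cells and by 0 in sensitive against young cells. With the block, 3 passed between resistant and sensitive cells, all as lower, where 1.97% of all genes were called lower. Between old and young cells 1 passed as higher and 1 as lower, where 7.89% of all genes were called higher and 7.03% lower.

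Of the 4 other inhibitor of apoptosis genes, Birc5 fell in resistant cells with the block. Birc5 encodes survivin, which also serves in chromosome segregation. It had 1.52, 0.788 and 5.73 CPM in resistant and 11.6, 5.53 and 19.6 CPM in sensitive cells, lower on each date though the ranges met. The log2 fold change was -2.40 ± 0.31 with the block (adjusted p = 0.00238) and -2.17 without it (adjusted p = 0.606). In the same libraries the 7 granulocyte markers summed to 29.3 to 68.8 CPM in resistant and 77.4 to 735 CPM in sensitive cells, with 0 of 7 passing with or without the block. The 8 immature B cell markers summed to 126.3 to 152 CPM in resistant and 138 to 187 CPM in sensitive cells, and 2 of 8 passed as lower with the block (median log2 fold change -0.41). The 5 erythroid markers tested had a median of -1.52 with the block, and 0 passed. With the block 1 T cell marker and 1 monocyte and macrophage marker passed as higher. The part of these markers in the Birc5, Lmnb1 and Panx1 values was not tested. Birc2, Birc3 and Birc6 did not pass in either paired comparison. With age, Birc6 had the smallest p of this list (log2 fold change -0.36, adjusted p = 0.849, and 0.0886 with the block).

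The 3 other genes followed for proteins of the space between the mitochondrial membranes did not pass in either paired comparison. They were Htra2, Aifm1 and Endog, which encode a protease, a flavoprotein and a nuclease of mitochondria. Endog had a log2 fold change of 0.64 with age (adjusted p = 0.618, and 0.0931 with the block).

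Of the 6 regulators of the apoptosome or of XIAP, Usp11 rose with age under the block, as did 7.89% of all genes. Its protein is a deubiquitinase reported in human cells to stabilise XIAP. Usp11 had 129, 81.1 and 80.1 CPM in old and 114, 59.9 and 53.5 CPM in young cells, higher on each date (log2 fold change 0.40 ± 0.10, adjusted p = 0.0211, and 0.783 without the block). Apip, whose protein binds APAF1 and is an enzyme of methionine salvage, had 15.7, 10.9 and 12.1 CPM in old and 6.16, 9.68 and 8.18 CPM in young cells. Its groups did not overlap, where 16.1% of all genes did not, and its log2 fold change was 0.68 (edgeR adjusted p = 0.301, and 0.0543 with the block). Hspa4 had a log2 fold change of -0.25 (adjusted p = 0.81, and 0.0543 with the block). Aven, Xaf1 and Septin4 did not pass, and none of the 6 passed between resistant and sensitive cells.

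Of the 10 caspase substrates, Parp1, a sensor of DNA breaks, fell with age under the block. It had 314, 458 and 533 CPM in old and 439.6, 685 and 659 CPM in young cells (log2 fold change -0.46 ± 0.09, adjusted p = 0.00869, and 0.555 without the block). The ranges met, and the old library was the lower on each date. Lmnb1, which encodes lamin B1 of the nuclear lamina, had 73.0, 73.0 and 115.6 CPM in resistant and 110.9, 95.3 and 169 CPM in sensitive cells (-0.51 ± 0.09 with the block, adjusted p = 0.0116). Panx1, a membrane channel that caspases open, had 39.0, 38.0 and 37.0 CPM in resistant and 49.97, 57.8 and 45.2 CPM in sensitive cells, which did not overlap (-0.42 ± 0.10 with the block, adjusted p = 0.0409). Neither passed without the block. Over the list, 9 of 10 log2 fold changes with age were negative, with a median of -0.19 against -0.04 over all genes tested. Between resistant and sensitive cells 7 of 10 were negative, with a median of -0.11 against -0.02.

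Complex III and IV, the enzymes that cytochrome c carries electrons between, were followed through 18 tested subunit genes beside Cycs. None passed in any comparison or with the block. Between old and young cells 17 of 18 log2 fold changes were negative (median -0.12, against -0.04 over all genes tested). Only Uqcrc1, Uqcrc2 and Uqcrq were lower in old cells on all 3 dates, as were 25.2% of all genes. With the block Uqcr10, Cox5a and Cox8a had small positive values (0.011, 0.004 and 0.029). Against young cells 14 of 18 log2 fold changes were positive in resistant (median 0.24) and 15 of 18 in sensitive cells (median 0.33). All genes tested had medians of -0.02 and -0.01 there. Among the largest of the positive ones, Cox5a had 40.1, 45.3 and 67.1 CPM in sensitive and 16.1, 45.7 and 42.1 CPM in young cells, where the lowest library was that of 24 March. That library was the highest young one for Cyc1, Cox5b, Cox7a2 and Cox7c and the lowest for all other subunits tested. For Cox4i1 it had 30.3 CPM, against 94.3 and 92.2 CPM in the other young libraries. The initiator caspase genes Casp2 and Casp8 did not pass in any comparison either.

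**Figure D4:**
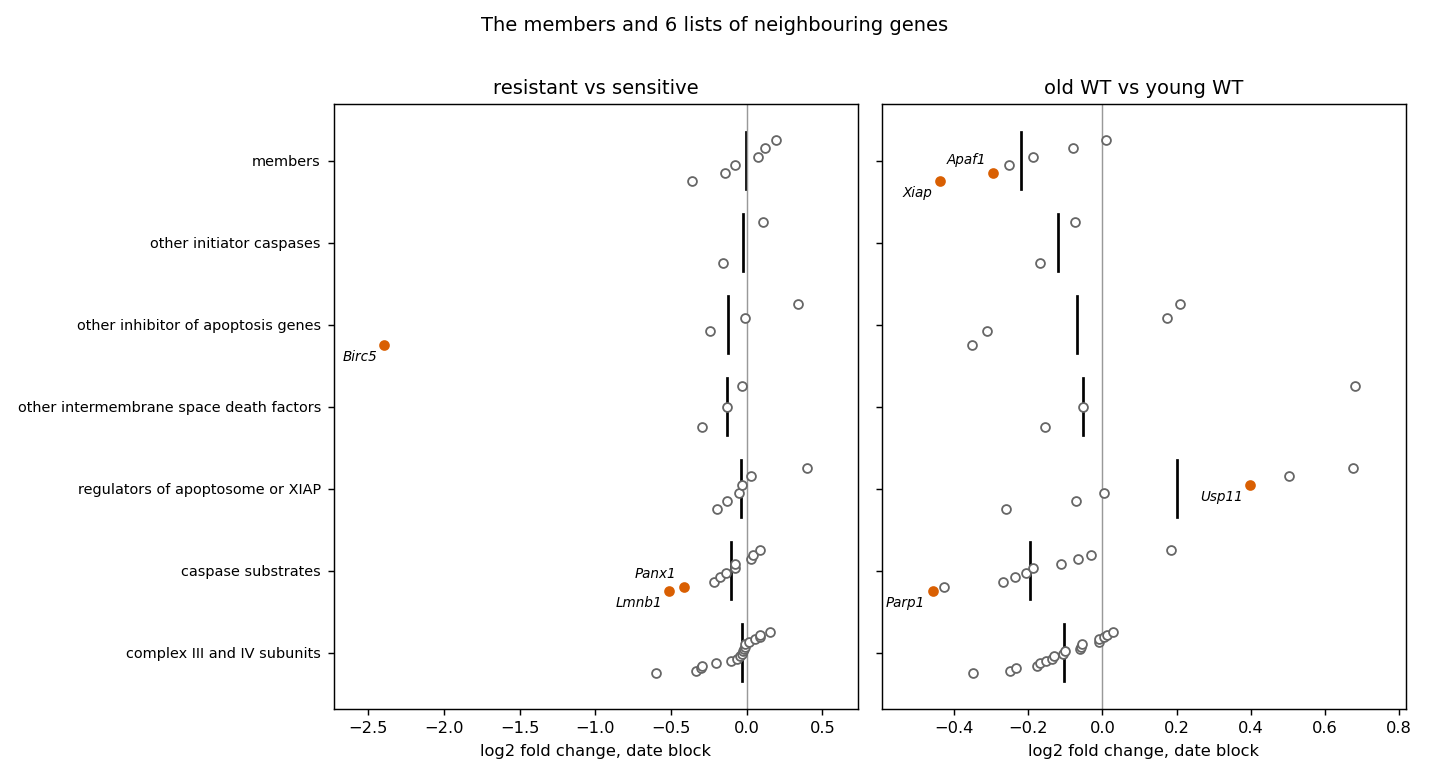
Log2 fold changes with the date block for the 6 members and the 6 lists of neighbouring genes, with a black bar at each list's median and filled, named points where the adjusted p was under 0.05. The named genes are Birc5, Lmnb1 and Panx1 in resistant against sensitive cells and Xiap, Apaf1, Usp11 and Parp1 in old against young wild-type cells.

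Beyond the pathway, the tested genes most like each member over the 12 libraries were found by Pearson correlation of log2 CPM. For Apaf1 they were Clec16a (0.97), Pds5b (0.96) and Mtf1 (0.94), and for Xiap Rbl1 (0.97), Slc39a10 (0.97) and Far1 (0.96). For Casp9 they were Cmtm4 (0.94), Bbx (0.91) and Atxn1l (0.91). For Casp6 they were Ywhaq (0.98), Ghitm (0.97) and Tmbim6 (0.97), and for Cycs Tbrg1 (0.97), Atp5d (0.96) and Vpreb3 (0.96). For Diablo they were Lypla2 (0.95), Eldr (0.94) and Ints11 (0.94). These are the highest of 13592 correlations over points that share groups, dates and library scaling, and no p is given for them.

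The members lie on 6 chromosomes. In GRCm38.p6 Apaf1 (Entrez 11783) lies at chr10:90989311-91082743, Casp9 (12371) at chr4:141793612-141815978 and Casp6 (12368) at chr3:129901415-129914112. Cycs (13063) lies at chr6:50562563-50566569, Diablo (66593) at chr5:123511330-123524164 and Xiap (11798) at chrX:42059613-42109664. Some overlap another gene. Diablo overlaps B3gnt4 by 553 bases, and B3gnt4 had 277 reads over the 12 libraries. Casp9 overlaps Cela2a by 1025 bases (5 reads), and Apaf1 overlaps Ikbip by 7 bases (1647 reads). No strand setting is given in the labels, so reads from the shared bases cannot be assigned.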

How the data were processed

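The authors deposited whole-number read counts per gene in 1 table with 1 column per library. Subread, featureCounts and the mouse build mm10 are named, per the submitters' processing notes. Versions, annotation, strand setting and the treatment of multi-mapping reads are not stated there. RNA extraction used a Qiagen kit and library preparation the Illumina TruSeq RNA v2 kit, per the labels' protocols. The table held 27179 genes by Entrez identifier, of which 25275 matched a symbol in RefSeq GRCm38.p6, and 0 columns were left unused. Total counts per library lay between 13474162 and 23539764. Every pair of replicates differed by more than counting noise.

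Genes were kept by filterByExpr with a minimum count of 10 in edgeR 4.0.16 under R 4.3.3. The 12 libraries were fitted together by group with the robust quasi-likelihood test (TMM factors, 8 residual degrees of freedom). Benjamini-Hochberg adjustment ran over 13592 genes, with a threshold of 0.05. Where no tool is named, an adjusted p comes from edgeR. CPM use TMM-scaled library sizes, log2 CPM a prior count of 2, and RPKM the union exon length of GENCODE M21 on the same assembly. The fit was checked on simulated data.

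Collection date was fitted as a block in an alternative fit (6 dates, 4 residual degrees of freedom), since the labels give same-numbered libraries of each pair of groups the same date. Their deviations from the group means correlated at 0.745, 0.512 and 0.555 in wild-type and 0.284, 0.325 and 0.487 in Bak-deficient cells. Libraries of different numbers were not correlated in this way, so these values alone do not show that the numbers pair the samples. Other alternatives were DESeq2 1.42.0, RLE factors, no filter, only the 6 libraries compared, and libraries or dates left out. The members, lists and tests were chosen with earlier results of these data known. Genes named were the members, Bax and Bak1 as a check of the labels, list genes that passed in a fit or had the smallest p of their list, and the 3 genes most correlated with each member, leaving out predicted genes. Sums of markers were taken over 10 lists. Some genes of the rule are not reported here.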

Additional observations from a re-analysis of the deposited data

How the results depend on the processing

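Without a date block, 0 of the 6 members passed in any of the 4 comparisons under DESeq2, RLE factors, no filter, only the 6 libraries compared, or any library left out. The replicate block (collection date) called 2 members in old against young cells, 2 with RLE factors, and 1 each with only the 6 libraries compared, with DESeq2, and without the date of replicate 1 or 2 (0 without that of replicate 3). These variants of the block were chosen after seeing the data. For Apaf1 the adjusted p with the block was 0.0459 with RLE factors and 0.136 with only the 6 libraries. For Xiap it was 0.0138 with RLE factors, 0.0325 with only the 6 libraries, 0.00179 with DESeq2, and 0.037 and 0.0473 without the date of replicate 1 or 2. In resistant against sensitive cells 0 members passed under any of these. No replicate block could be fitted against young wild-type cells for the Bak-deficient groups, which shared no date with them.

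Counts over all genes moved more. Old against young gave 273 genes, 746 in DESeq2 and 1 with only the 6 libraries. The block gave 2028, 2009 with RLE factors, 1276 with only the 6 libraries, 2067 with DESeq2, and 925, 1175 and 1714 without the dates of replicates 1, 2 and 3. Leaving out a library gave 75 to 238, with 86 and 160 without old replicates 2 and 3, 165 and 75 without young replicates 1 and 2, and a count over 1.5 times smaller without young replicate 3 too. Resistant against sensitive gave 6, 127 in DESeq2 and 11 without a filter. The block gave 463, 472 with RLE factors, 816 with only the 6 libraries, 688 with DESeq2, and 131, 173 and 139 without each date. Leaving out a library gave 0 to 5. Sensitive against young gave 0, 15 in DESeq2, 3 without a filter, 3 without the libraries of 24 March and 0 to 1 without a library. Resistant against young gave 22, 143 in DESeq2, 34 without a filter, 12 with only the 6 libraries and 10 to 20 without a library. The causes were not tested.

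Of 342 log2 fold changes of members under alternatives 22 changed sign against the main fit without a block. No member had passed in that fit in any comparison, so this held for every possible change of sign. With the block, Casp6 in old against young was -0.125 without the date of replicate 2, and Casp6 was -0.029 and Casp9 0.014 without that of replicate 3. Casp6 in resistant against sensitive was 0.038 without the date of replicate 2. Diablo in sensitive against young was 0.086 without the libraries of 24 March. Leaving out single libraries gave -0.41 to 0.13 for Cycs and -0.16 to 0.33 for Casp6 in old against young, and -0.14 to 0.26 for Xiap and -0.17 to 0.032 for Casp6 in resistant against sensitive. It gave -0.16 to 0.093 for Diablo and -0.40 to 0.023 for Xiap in sensitive against young, and -0.13 to 0.082 for Apaf1, -0.027 to 0.094 for Casp9 and -0.24 to 0.054 for Xiap in resistant against young. Depth limits Cycs most, with 34 reads in its lowest library.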
